A study of Mus musculus with 8 samples.

Results

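The genes described here are Yap1, the 4 TEAD transcription factor genes Tead1, Tead2, Tead3 and Tead4, and 5 genes that YAP and TEAD are known to regulate: Lats2, Amotl2, Ajuba, Ankrd1 and Axl. They were selected by symbol, as 10 of the 50578 genes in the count table. The rule uses no measured value, but the genes were chosen with earlier results of these data known. All 10 passed the filter on low counts, which left 15154 genes for testing. They were measured by RNA-seq in wild-type mouse embryonic fibroblasts (MEFs) of the C57BL/6J strain, at passage 3 to 5, in 8 libraries that form 4 groups of 2. The control group, MEF, received no compound as far as the labels say, and a vehicle is not given in the sources used here. The other groups received 10 µM of 1 compound, added 2 hours after plating and kept in the medium, which was changed every 3 days. The compounds were carbidopa, an inhibitor of aromatic L-amino acid decarboxylase, CHIR-99021, an inhibitor of the kinase GSK3, and LY-364947, an inhibitor of the TGF-beta type I receptor. The sample labels spell the last compound LY-364747. The time of harvest for these libraries is not given in the sources used here.

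YAP is a coactivator without a DNA-binding domain of its own. In the Hippo pathway, the MST kinases activate the LATS kinases, which phosphorylate YAP and its relative TAZ and hold them in the cytoplasm. Unphosphorylated YAP enters the nucleus, binds a TEAD factor and switches on genes of growth and of the cytoskeleton, and in fibroblasts its activity is known to rise on stiff surfaces and in spread cells. Some of its target genes, Lats2, Amotl2 and Ajuba among them, encode proteins that act back on the pathway. RNA levels carry no record of where the YAP protein is or of its phosphorylation.

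The libraries held 15039566 to 20504338 counts. The carbidopa pair differed most, with a chi-square per degree of freedom between its libraries of 36.4, against 4.35 to 9.38 in the other 3 pairs. The summed level of 10 fibroblast markers was 16156 to 16387 CPM in MEFs and 5947 to 8203 CPM in treated cells. CPM are counts scaled to a common library size by TMM, per library. The markers did not all fall: each compound had 8 called lower and 1 higher (adjusted p under 0.05 in edgeR against MEFs). Pdgfra was at 238 and 264 CPM in MEFs and at 315 to 394 CPM in treated cells. Dcn was at 1596 and 1830 CPM in MEFs and at 981 and 1209 CPM with CHIR-99021. In the carbidopa and LY-364947 libraries Dcn was at 1740 to 2004 CPM. The sum of 5 smooth muscle markers was 2841 to 3100 CPM in MEFs, 342 to 422 CPM with carbidopa, 311 to 339 CPM with LY-364947 and 641 to 747 CPM with CHIR-99021. The sum of 12 macrophage markers was 1147 to 1191 CPM in MEFs, 345 to 355 CPM with carbidopa, 258 to 267 CPM with LY-364947 and 85.2 to 92.2 CPM with CHIR-99021. The labels call the treated cells hepatic-like. None of 8 hepatocyte markers, Alb and Hnf4a among them, had enough counts for testing, their summed level was at most 1.18 CPM in any library, and Serpina1a and Tat were at 0 in all 8. The sum of 8 epithelial markers was 3.23 to 4.24 CPM in MEFs and 9.82 to 21.5 CPM in treated cells. Krt19 made up most of that sum in every library of MEFs and treated cells, at up to 19.2 CPM, and Epcam, Cdh1, Krt8, Cldn3 and Cldn7, with 0 to 6 counts per library, could not be tested. The sum of 6 endothelial markers was 16.8 to 19.6 CPM in MEFs and 11.3 to 15.6 CPM in treated cells. In bulk RNA, fewer cells of a type and less RNA per cell cannot be told apart. The part of these marker shifts in the results for YAP, TEAD and their targets was not tested.

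TEAD factors bind the core motif GGAATG. The 250 bases before the start of transcription were read from RefSeq on the GRCm38.p6 assembly for 8 of the 10 genes, some with several starts, 11 windows in all. Tead1 and Tead4 had no entry. The first 30 bases after the start were found in a GENCODE transcript for 9 of the windows, not for those of Ajuba and Axl, whose RefSeq starts lie upstream of the GENCODE gene. Of the 3 Tead3 windows, 2 overlap in part, with no match in the shared bases. The motif, on either strand, stood in 7 of the 11 windows, which belong to 6 genes: Yap1, Tead3, Amotl2, Ajuba, Ankrd1 and Axl. It stood in 12.6% of 32851 such windows over all genes. No match was found in the windows of Tead2 and Lats2. The AP-1 motif TGANTCA, held by 6.75% of all windows, and the CArG box bound by SRF, held by 1.47%, were in none of the 11. The motifs searched do not overlap one another. The 4 windows shown are those of the target genes that were highest with CHIR-99021, 5′ to 3′ on the strand of the gene, with GGAATG or its reverse complement CATTCC in capitals. They lie at chr19:36119845-36120094 (minus strand) for Ankrd1, chr9:102717554-102717803 (plus strand) for Amotl2, chr14:54577662-54577911 (minus strand) for Ajuba and chr7:25788734-25788983 (minus strand) for Axl.
Ankrd1: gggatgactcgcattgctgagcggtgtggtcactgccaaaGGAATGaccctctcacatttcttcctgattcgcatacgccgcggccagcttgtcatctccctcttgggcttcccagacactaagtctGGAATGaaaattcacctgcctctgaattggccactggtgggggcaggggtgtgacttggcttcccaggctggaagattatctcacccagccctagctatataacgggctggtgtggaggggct
Amotl2: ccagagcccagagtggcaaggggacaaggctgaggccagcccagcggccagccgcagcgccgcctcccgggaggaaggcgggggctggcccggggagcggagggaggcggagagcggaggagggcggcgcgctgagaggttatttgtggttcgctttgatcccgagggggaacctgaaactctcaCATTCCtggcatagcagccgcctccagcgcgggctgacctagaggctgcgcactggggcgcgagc
Ajuba: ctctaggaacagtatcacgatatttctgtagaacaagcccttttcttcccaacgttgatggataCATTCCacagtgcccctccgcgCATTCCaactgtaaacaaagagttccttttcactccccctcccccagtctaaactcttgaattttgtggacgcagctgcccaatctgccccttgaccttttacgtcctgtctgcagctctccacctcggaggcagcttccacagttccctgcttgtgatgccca
Axl: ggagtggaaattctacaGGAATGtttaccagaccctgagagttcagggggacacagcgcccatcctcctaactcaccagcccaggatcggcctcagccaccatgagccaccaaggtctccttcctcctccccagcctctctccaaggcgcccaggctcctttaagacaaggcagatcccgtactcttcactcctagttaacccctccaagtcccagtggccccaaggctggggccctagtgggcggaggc
The Ankrd1 window held 2 forward matches, at -210 to -205 and at -123 to -118 from the start. Ajuba had 2 matches on the reverse strand, at -186 to -181 and at -164 to -159. Amotl2 had 1 reverse match at -65 to -60, and Axl had 1 forward match at -233 to -228. In the Yap1 window, 1 forward match lay at -141 to -136. A match of 6 letters is a description of the window and no sign that a factor binds there.

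**Figure D1:**
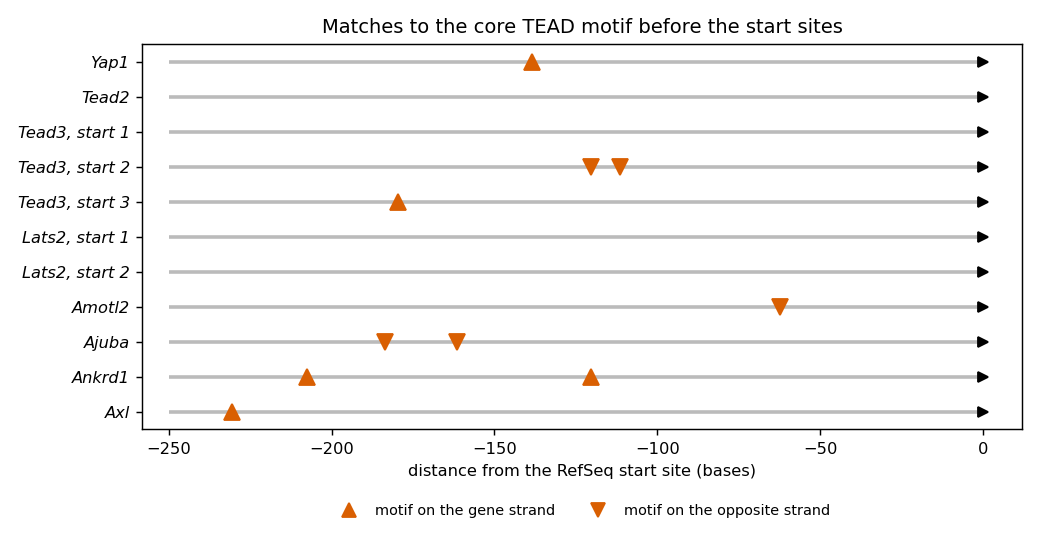
Positions of the core TEAD motif GGAATG in the 250 bases before each RefSeq transcription start of the genes studied. The horizontal axis gives the distance from the start in bases, each row is 1 window, and each triangle is 1 match, pointing up on the strand of the gene and down on the other strand. Matches fell in 7 of 11 windows, at distances from -233 to -60.

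Yap1 (ENSMUSG00000053110, chromosome 9, 7931999 to 8004596 on mm10, the positions here being those of GENCODE M21) was at nearly the same level in all 8 libraries. Its level was 211 and 211 CPM in the MEF libraries, 212 and 216 CPM with carbidopa, 212 and 221 CPM with LY-364947 and 215 and 219 CPM with CHIR-99021. The treated libraries were all a little above the MEF libraries, and none stood apart. Its log2 fold change from MEFs was 0.02 with carbidopa, with a 95% interval of -0.18 to 0.22. With LY-364947 and CHIR-99021 it was 0.04 each, with intervals of -0.16 to 0.24 for both. None of the 6 comparisons between groups called it at an adjusted p under 0.05 in edgeR's quasi-likelihood test, and these intervals leave room for changes of at most about 0.24 on the log2 scale.

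Tead1 (ENSMUSG00000055320, chromosome 7, 112679318 to 112906807) was the main TEAD gene in MEFs, and its level was lower with carbidopa. It stood at 891 and 938 CPM in MEFs, 443 and 728 CPM with carbidopa, 785 and 715 CPM with LY-364947, and 726 and 817 CPM with CHIR-99021. Every treated library lay below both MEF libraries, and the first carbidopa library lay far below all the others. The log2 fold change with carbidopa was -0.64 ± 0.19 (SE), 1.56-fold lower, with an adjusted p of 0.0223 in edgeR. It was -0.33 without carbidopa replicate 1 and -1.04 without carbidopa replicate 2, and it was called in both. It was not called without MEF replicate 1 (-0.68, adjusted p of 0.079 in edgeR) or without MEF replicate 2 (-0.61, adjusted p of 0.119). With LY-364947 the log2 fold change was -0.29 and with CHIR-99021 it was -0.24, with adjusted p of 0.288 and 0.332 in edgeR. With either carbidopa library left out of the fit both differences were called, at an adjusted p of 0.0103 to 0.021 in edgeR.

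Tead2 (ENSMUSG00000030796, chromosome 7, 45215753 to 45233644), which encodes another TEAD factor, moved the other way. Its level was 36.4 and 36.8 CPM in MEFs, 51.3 and 44.9 CPM with carbidopa, 40.4 and 43.8 CPM with LY-364947, and 38.0 and 35.1 CPM with CHIR-99021. Both carbidopa libraries were above all others, and the CHIR-99021 libraries lay on either side of the MEF libraries. It rose with carbidopa by 0.39 ± 0.11 (SE) on the log2 scale, 1.31-fold higher, with an adjusted p of 0.0189 in edgeR. The call was lost without MEF replicate 1 (0.39, adjusted p of 0.114) and without MEF replicate 2 (0.40, adjusted p of 0.11 in edgeR). With LY-364947 it was 0.20 with an adjusted p of 0.206, and with CHIR-99021 it was -0.00 with an interval of -0.25 to 0.25.

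Tead3 (ENSMUSG00000002249, chromosome 17, 28331671 to 28350817) was called in no comparison. Its level was 47.2 and 46.1 CPM in MEFs, 44.0 and 46.1 CPM with carbidopa, 48.9 and 45.7 CPM with LY-364947, and 56.0 and 51.0 CPM with CHIR-99021. Both CHIR-99021 libraries were above the other 6, with a log2 fold change from MEFs of 0.20 and an adjusted p of 0.155 in edgeR. Tead4 (ENSMUSG00000030353, chromosome 6, 128224288 to 128300823) had the fewest reads, 45 to 91 counts per library. It stood at 3.57 and 3.03 CPM in MEFs, 2.78 and 2.89 CPM with carbidopa, 2.53 and 3.73 CPM with LY-364947, and 5.12 and 5.28 CPM with CHIR-99021. Here too both CHIR-99021 libraries were the highest, and the range of the LY-364947 pair took in the other 4. Its log2 fold change with CHIR-99021 was 0.66 ± 0.24 (SE), with an adjusted p of 0.0524 in edgeR. Leaving out either carbidopa or either LY-364947 library brought it to an adjusted p of 0.0357 to 0.0491 at values of 0.65 to 0.66.

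To compare the TEAD genes with one another, CPM were divided by exon length in kilobases. In MEFs Tead1 stood at 67.4 ± 2.49, Tead2 at 7.64 ± 0.0613, Tead3 at 6.95 ± 0.121 and Tead4 at 0.917 ± 0.105 CPM per kilobase (SD, n = 2 each). The order of Tead2 and Tead3 differed between groups: Tead2 was above Tead3 in both libraries of the MEF, carbidopa and LY-364947 groups, and Tead3 was above Tead2 in both libraries with CHIR-99021, by less than 1 CPM per kilobase. Tead1 made up 81.3% ± 0.723 of the TEAD sum in MEFs, 76.9% ± 2.45 with CHIR-99021, 76.8% ± 1.61 with LY-364947 and 70.1% ± 8.09 with carbidopa (SD, n = 2 each). With carbidopa the share was 64.4% in replicate 1 and 75.9% in replicate 2, so both were below the MEF libraries but far from each other. Tead2 took 9.22% ± 0.184 of the sum in MEFs and 17.2% ± 5.55 with carbidopa. Tead4 took 1.11% ± 0.158 in MEFs and 1.96% ± 0.0591 with CHIR-99021. The TEAD sum was 82.9 ± 2.32 CPM per kilobase in MEFs and 73.9 ± 3.80 with CHIR-99021, and it was 72.0 ± 3.25 with LY-364947 and 60.7 ± 14.1 with carbidopa. Relative to Yap1, it was 3.64 ± 0.0994 times as high in MEFs, 3.15 ± 0.125 with CHIR-99021, 3.08 ± 0.229 with LY-364947 and 2.62 ± 0.578 with carbidopa.

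**Figure D2:**
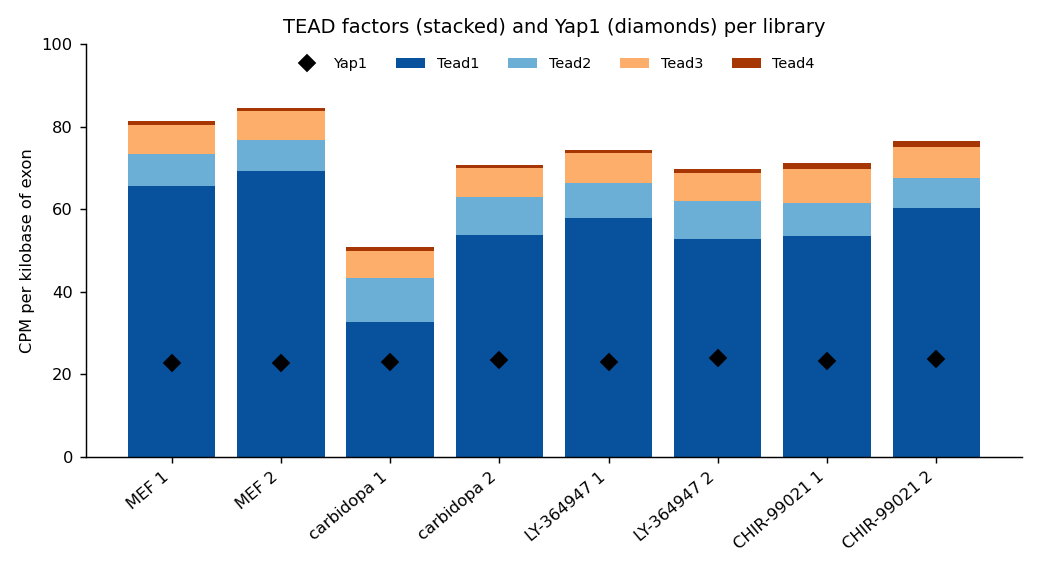
Levels of the 4 TEAD genes in each library, in CPM per kilobase of exon, stacked from 0, with 2 libraries in each of the 4 groups and Yap1 as diamonds on the same axis. Tead1 forms most of every bar, and the shortest bar, at 50.7, is the first carbidopa library.

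Lats2 (ENSMUSG00000021959, chromosome 14, 57689662 to 57758388) encodes a kinase that inactivates YAP and is itself a YAP target. Its level was 161 and 151 CPM in MEFs, 101 and 102 CPM with carbidopa, 104 and 107 CPM with LY-364947, and 140 and 126 CPM with CHIR-99021. The carbidopa and LY-364947 libraries were below all others, and CHIR-99021 lay between them and MEFs with no overlap. It fell with carbidopa by a log2 fold change of -0.62 ± 0.0987 (SE), 1.54-fold lower, with an adjusted p of 7.7e-04 in edgeR. With LY-364947 it was -0.56 ± 0.0988, with an adjusted p of 0.00155. Both calls held whichever library was left out. With CHIR-99021 it was -0.23, with an adjusted p of 0.0948 in edgeR, which became 0.0305 and 0.0314 (-0.22) without either carbidopa library. In GENCODE M21, 42.4% of the exon bases of Lats2 also belong to Gm49361 on the same strand, so reads from the shared part cannot be assigned to 1 of these genes and the level of Lats2 is uncertain to that extent.

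Amotl2 (ENSMUSG00000032531, chromosome 9, 102716672 to 102733418), an angiomotin that binds YAP and keeps it out of the nucleus, rose with CHIR-99021. It stood at 184 and 174 CPM in MEFs, 239 and 208 CPM with carbidopa, 203 and 241 CPM with LY-364947, and 365 and 304 CPM with CHIR-99021. All treated libraries were above both MEF libraries, carbidopa and LY-364947 overlapped, and both CHIR-99021 libraries were the highest. The log2 fold change with CHIR-99021 was 0.90 ± 0.13 (SE), 1.87-fold higher, with an adjusted p of 3.75e-04 in edgeR, and it was called whichever library was left out. With carbidopa it was 0.32 with an adjusted p of 0.0768 in edgeR, which was called without carbidopa replicate 2 (0.42, adjusted p of 0.0147). With LY-364947 it was 0.31 with an adjusted p of 0.1 in edgeR, which was called without carbidopa replicate 1 (0.31, 0.0306) and without carbidopa replicate 2 (0.31, 0.0314).

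Ajuba (ENSMUSG00000022178, chromosome 14, 54567472 to 54577558) encodes a LIM protein that restrains the LATS kinases. Its level was 28.4 and 26.2 CPM in MEFs, 33.5 and 26.1 CPM with carbidopa, 27.6 and 29.9 CPM with LY-364947, and 45.7 and 41.6 CPM with CHIR-99021. The CHIR-99021 libraries were above the other 6, which overlapped. With CHIR-99021 the log2 fold change was 0.68 ± 0.138 (SE), 1.60-fold higher, with an adjusted p of 0.00329 in edgeR, called whichever library was left out. With carbidopa it was 0.13, with an interval of -0.18 to 0.44, and it was called only without carbidopa replicate 2 (0.30, adjusted p of 0.0485). With LY-364947 the log2 fold change was 0.08, with an interval of -0.23 to 0.39.

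Ankrd1 (ENSMUSG00000024803, chromosome 19, 36111961 to 36120099) encodes an ankyrin repeat protein of muscle and stretched cells and is among the target genes most used as a readout of YAP. It stood at 27.4 and 24.0 CPM in MEFs, 37.8 and 27.2 CPM with carbidopa, 21.6 and 22.5 CPM with LY-364947, and 52.4 and 42.5 CPM with CHIR-99021. The LY-364947 libraries were the lowest and the CHIR-99021 libraries the highest, while carbidopa replicate 2 lay within the range of the MEF libraries. CHIR-99021 gave a log2 fold change of 0.89 ± 0.168 (SE), 1.85-fold higher, with an adjusted p of 0.0022 in edgeR, called whichever library was left out. With carbidopa it was 0.34, with an adjusted p of 0.14, and it was called only without carbidopa replicate 2 (0.56, adjusted p of 0.00589 in edgeR). With LY-364947 it was -0.22, with an interval of -0.61 to 0.16.

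Axl (ENSMUSG00000002602, chromosome 7, 25757273 to 25788705) encodes a receptor tyrosine kinase of the TAM family. It was the most abundant of the 10 genes per length, at 109 ± 5.44 CPM per kilobase in MEFs. Its level was 569 and 531 CPM in MEFs, 358 and 372 CPM with carbidopa, 345 and 355 CPM with LY-364947, and 681 and 613 CPM with CHIR-99021. Carbidopa and LY-364947 libraries were below both MEF libraries and CHIR-99021 libraries above them. Its log2 fold change was -0.59 ± 0.0983 (SE) with carbidopa, 1.51-fold lower, with an adjusted p of 0.00101 in edgeR. With LY-364947 it was -0.65 ± 0.0984, 1.57-fold lower, with an adjusted p of 5.76e-04. Both calls held whichever library was left out. With CHIR-99021 it was 0.23, with an adjusted p of 0.0846 in edgeR, which fell to 0.0163 and 0.0166 (0.24) without either carbidopa library. Macrophages also make Axl, and the part of the macrophage marker shifts given above in the Axl values was not tested.

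**Figure D3:**
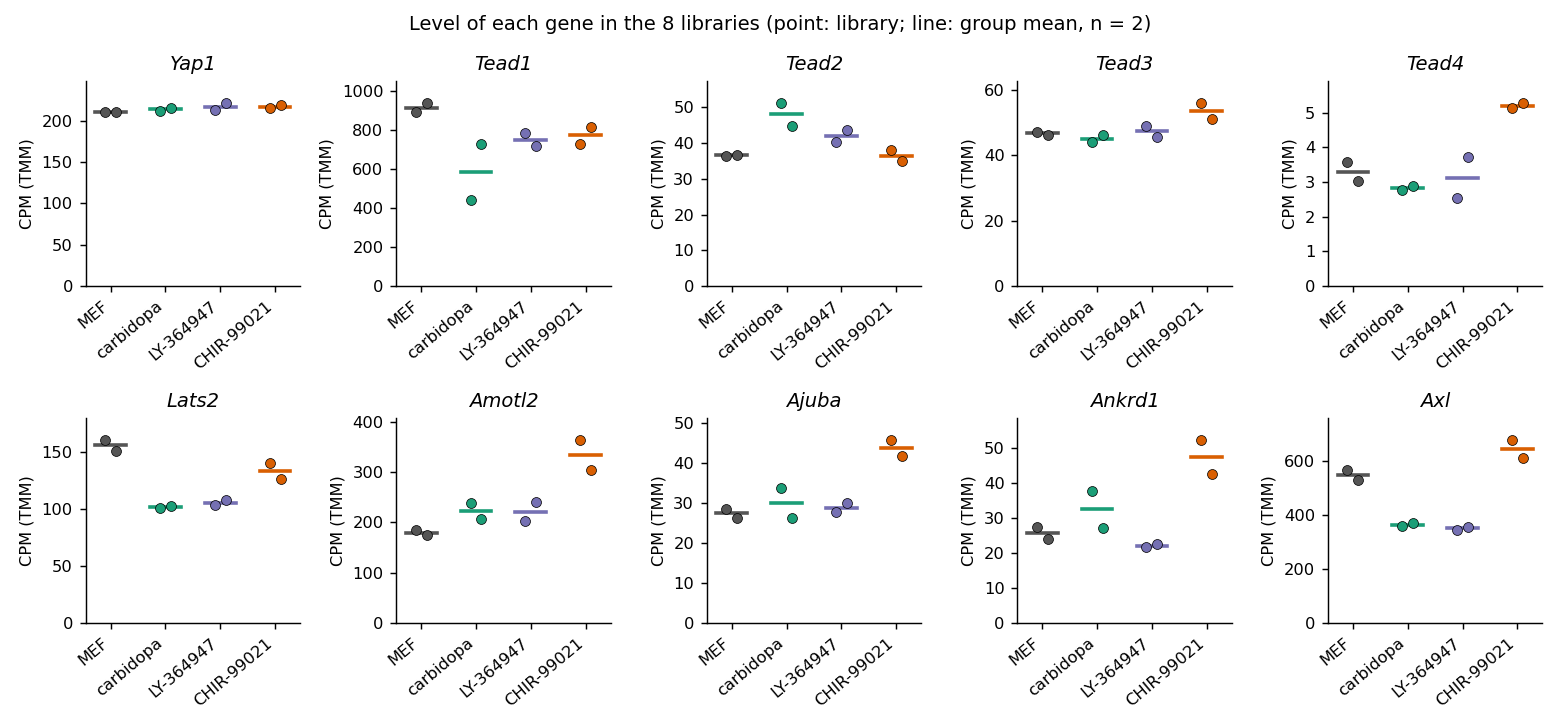
Level of each of the 10 genes in each of the 8 libraries, in CPM on linear axes from 0, by group. Points are libraries and lines are group means, with 2 libraries per group; Yap1 is level across the groups, and Ankrd1, Amotl2 and Ajuba are highest in both CHIR-99021 libraries.

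Against MEFs, between 2 and 4 of these genes were called with each compound, read here beside the share of all genes tested. Carbidopa changed 4 of the 10, with Tead2 higher and Tead1, Lats2 and Axl lower, where 37.7% of all 15154 genes tested were called (18.0% higher and 19.7% lower). LY-364947 changed 2, Lats2 and Axl, both lower, where 31.0% of all genes were called (13.7% higher and 17.2% lower). CHIR-99021 changed 3, Amotl2, Ajuba and Ankrd1, all higher, where 38.8% of all genes were called (18.7% higher and 20.1% lower). Over the 10 genes the median log2 fold change was -0.01, -0.03 and 0.22, in that order, beside 0.04, 0.03 and 0.04 over all genes tested. The 2 groups did not overlap for 7, 7 and 9 of the 10, beside 68.9%, 72.7% and 76.2% of all genes. These comparisons share the MEF libraries. The counts moved with single libraries. Carbidopa called 2 without either MEF library and 7 without carbidopa replicate 2, LY-364947 called 4 without either carbidopa library, and CHIR-99021 called 7 without either carbidopa library and 4 without either LY-364947 library.

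At the same dose of 10 µM, CHIR-99021 differed from carbidopa in 7 of the 10 genes and from LY-364947 in 5, and LY-364947 against carbidopa gave no call. The 3 pairs of compounds were compared, with p-values adjusted over all genes tested within each pair. CHIR-99021 against carbidopa gave 7 calls of 10, where 14.7% of all genes were called (6.62% higher and 8.08% lower). Tead4, Lats2, Amotl2, Ajuba, Ankrd1 and Axl were higher with CHIR-99021 and Tead2 was lower. CHIR-99021 against LY-364947 gave 5 calls, where 14.1% of all genes were called (6.45% higher and 7.69% lower), and Lats2, Amotl2, Ajuba, Ankrd1 and Axl were all higher with CHIR-99021. Over the 10, the median of the log2 values was 0.47 against carbidopa and 0.46 against LY-364947, beside -0.00 and 0.01 over all genes. Groups did not overlap for 8 of the 10 in each, beside 52.2% and 64.5% of all genes.

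Axl differed most clearly, 1.77-fold higher with CHIR-99021 than with carbidopa (log2 difference 0.83 ± 0.0985 SE, adjusted p of 4.85e-04 in edgeR). Against LY-364947 it was 1.85-fold higher (0.88 ± 0.0987, adjusted p of 3.39e-04). Ankrd1 was 2.16-fold higher with CHIR-99021 than with LY-364947, at a log2 fold change of 1.11 ± 0.168 and an adjusted p of 0.00195. These 3 calls held whichever library was left out. Amotl2 was 49.7% higher than with carbidopa and 50.8% higher than with LY-364947, with adjusted p of 0.0143 and 0.0133 in edgeR. Ajuba was 1.46-fold and 1.52-fold higher, with adjusted p of 0.0228 and 0.016. Without CHIR-99021 replicate 1 neither gene was called against either compound, at log2 values of 0.45 and 0.46 for Amotl2 and 0.48 and 0.54 for Ajuba. Without LY-364947 replicate 1 neither was called against LY-364947 (0.47 and 0.54). Ajuba was also not called against carbidopa without CHIR-99021 replicate 2 (0.62) or against LY-364947 without LY-364947 replicate 2 (0.67).

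The other calls lay close to the threshold. Lats2 was 1.31-fold higher with CHIR-99021 than with carbidopa (adjusted p of 0.0245 in edgeR) and 1.26-fold higher than with LY-364947 (adjusted p of 0.0482). Each was called with only 2 of the 8 libraries left out in turn, and the log2 fold change then ranged from 0.32 to 0.47 and from 0.26 to 0.42. The Lats2 call against LY-364947 was also lost under DESeq2 (0.32, adjusted p of 0.0521), RLE size factors (0.32, 0.0605), no filter on low counts (0.35, 0.0552), at least 10 counts in every library (0.31, 0.0536) and the replicate block (0.33, 0.076 in edgeR). Ankrd1 against carbidopa was 1.46-fold higher at an adjusted p of 0.0497, called in 1 of 8 such fits, with 0.33 without carbidopa replicate 2 and 0.81 at the highest. Tead4 was 1.83-fold higher with CHIR-99021 than with carbidopa (adjusted p of 0.0327 in edgeR), and Tead2 was 1.32-fold lower (adjusted p of 0.0383). With 1 library left out in turn, Tead4 was called in 3 of 8 fits, with log2 values over all 8 of 0.85 to 0.91, and Tead2 in 1 of 8, without carbidopa replicate 2. The Tead4 call was lost under DESeq2 (0.87, adjusted p of 0.106), and the Tead2 call under the replicate block (-0.40, adjusted p of 0.0559 in edgeR). With 1 library left out, the number of these genes called against carbidopa and against LY-364947 moved, and so did the number of all genes called.

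LY-364947 against carbidopa gave no call among the 10 in edgeR, where 0.0132% of all genes were called. At an unadjusted p under 0.05 edgeR gave 1 of the 10, Ankrd1, and 1367 of all genes, and DESeq2 called none of the 10. Ankrd1 was 1.47-fold lower with LY-364947, at a log2 fold change of -0.56 with an interval of -0.93 to -0.19 and an adjusted p of 0.519 in edgeR. Without carbidopa replicate 2 the log2 difference was -0.78 for Ankrd1 and 0.76 for Tead1. That fit called far more of all genes than the fit of all libraries, and it leaves 1 carbidopa library, so its calls are not read here. For Lats2, Axl and Amotl2 the log2 differences were 0.06, -0.06 and -0.01, with intervals of -0.16 to 0.28, -0.28 to 0.16 and -0.30 to 0.28. Groups did not overlap for 4 of the 10, beside 37.7% of all genes.

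**Figure D4:**
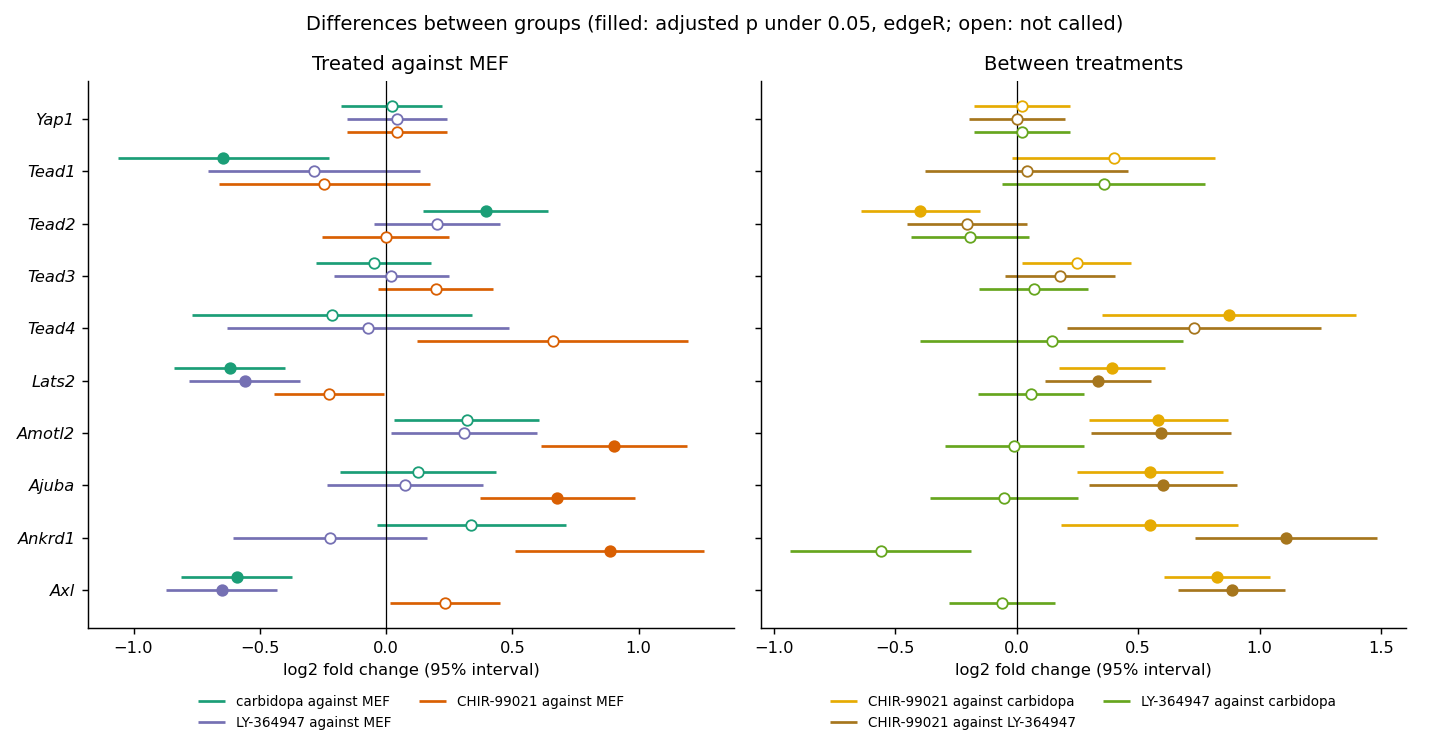
Log2 fold changes of the 10 genes with 95% intervals, for the treated groups against MEFs (left) and between treatments (right), on a linear axis of log2 values. Filled points passed an adjusted p under 0.05 in edgeR and open points did not; in the right panel, the CHIR-99021 comparisons have filled points to the right of 0 for Lats2, Amotl2, Ajuba, Ankrd1 and Axl.

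A list of 18 other genes known as targets of YAP or TAZ, all tested, was described beside them. Carbidopa called 16, with 6 higher and 10 lower, where 37.7% of all genes were called. LY-364947 called 12, with 6 higher and 6 lower, beside 31.0% of all genes, and CHIR-99021 called 13, with 8 higher and 5 lower, beside 38.8%. Genes of the list were thus called in both directions with every compound. Their median was -0.65, -0.31 and 0.24 on the log2 scale in that order. CHIR-99021 against carbidopa called 7, with 6 higher and 1 lower, beside 14.7% of all genes, and CHIR-99021 against LY-364947 called 5, with 4 higher and 1 lower, beside 14.1%. LY-364947 against carbidopa called none in edgeR. The 4 genes with the smallest p against MEFs were Ccdc80, Fjx1, Ccn2 and Tgfb2.

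Ccdc80, a secreted matrix protein gene, stood at 772 and 761 CPM in MEFs and at 36.9 to 49.0 CPM in the 6 treated libraries. The log2 values against MEFs were -3.99 with CHIR-99021, -4.31 with LY-364947 and -4.30 with carbidopa. Fjx1, a relative of the Drosophila growth regulator four-jointed, rose from 8.92 and 8.84 CPM in MEFs to 67.5 to 110 CPM in treated libraries. Tgfb2, which encodes a TGF-beta ligand, rose from 19.9 and 19.4 CPM to 82.9 to 114 CPM, the highest level being with LY-364947. These 3 genes and Ccn2 were each called in the same direction with every compound, but they were picked from the list by their small p against MEFs.

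Ccn2, which encodes the matricellular protein CTGF, followed another order. It stood at 414 and 374 CPM in MEFs, 41.4 and 36.5 CPM with carbidopa, 26.2 and 37.2 CPM with LY-364947, and 182 and 173 CPM with CHIR-99021. The log2 fold change from MEFs was -3.34, -3.63 and -1.15, in the order carbidopa, LY-364947 and CHIR-99021. With CHIR-99021 its level was higher than with LY-364947 (log2 difference 2.48) and than with carbidopa (2.19), with adjusted p of 1.46e-05 and 2.22e-05 in edgeR. Ccn1, its close relative, was singled out after its values were seen. Its level was 191 and 174 CPM in MEFs, 133 and 99.0 CPM with carbidopa, 87.0 and 105 CPM with LY-364947, and 330 and 303 CPM with CHIR-99021. As for Axl, the carbidopa and LY-364947 libraries were below MEFs and the CHIR-99021 libraries above, at log2 fold changes of -0.65, -0.93 and 0.80.

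**Figure D5:**
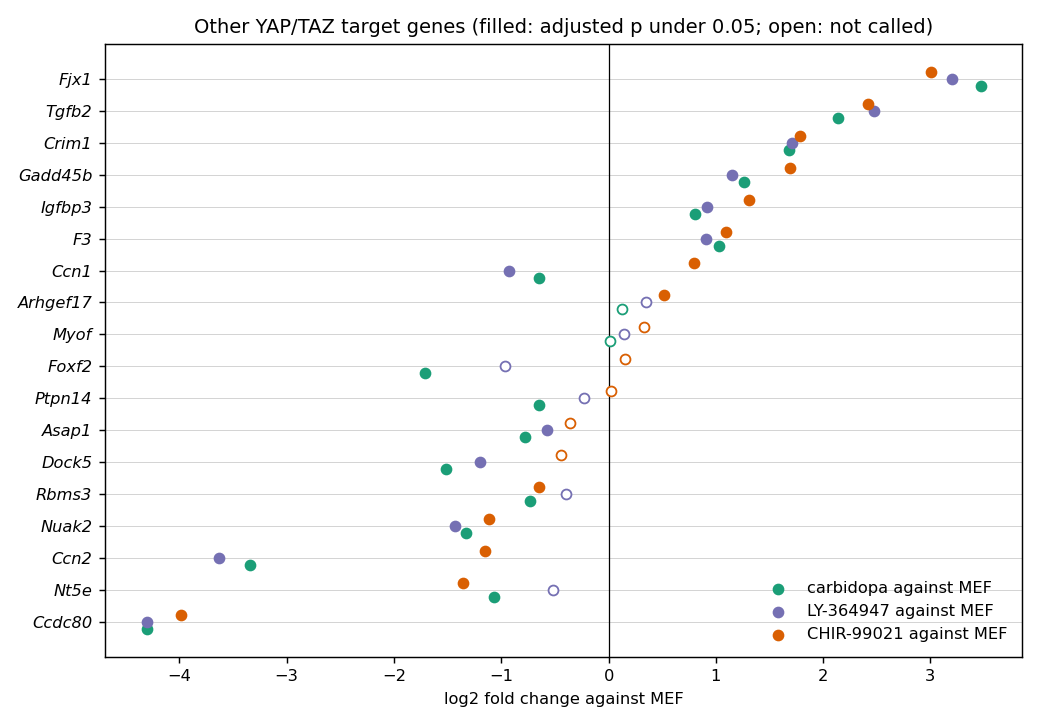
Log2 fold changes from MEFs of 18 other YAP or TAZ target genes with each of the 3 compounds, from the edgeR fit, with 2 libraries per group, filled where the adjusted p was under 0.05 and open elsewhere. Ccdc80 lies near -4 and Fjx1 near 3 with every compound, while Ccn1 is below 0 with carbidopa and LY-364947 and above 0 with CHIR-99021.

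Among 9 other cofactors and binding proteins of YAP and TEAD, 7 could be tested, all but Vgll1 and Vgll2. Carbidopa lowered 2, where 37.7% of all genes were called (19.7% lower), and LY-364947 lowered 2, where 31.0% were (17.2% lower). CHIR-99021 raised 3 and lowered 2, beside 38.8% of all genes (18.7% higher and 20.1% lower). Wwtr1, which encodes TAZ, stood at 368 and 406 CPM in MEFs and at 194 to 220 CPM in the treated libraries. Carbidopa gave a log2 fold change of -0.97 and both other compounds of -0.90, with adjusted p of 4.56e-05, 8.18e-05 and 7.35e-05 in edgeR. Wwtr1 was thus called lower with each compound, and Yap1 was called with none. Vgll3, a TEAD cofactor of the vestigial-like family, fell from 245 and 256 CPM to 128 to 158 CPM. Amotl1, an angiomotin like Amotl2, stood at 278 and 282 CPM in MEFs, 240 and 346 CPM with carbidopa, 348 and 378 CPM with LY-364947, and 568 and 519 CPM with CHIR-99021. It rose with CHIR-99021 by a log2 fold change of 0.96, with an adjusted p of 7.37e-04 in edgeR, and with the other compounds it was not called. Wtip, a LIM protein gene of the Ajuba family, had a log2 fold change of 0.65 with CHIR-99021 (adjusted p of 0.033 in edgeR), 0.49 with carbidopa (0.0914) and 0.23 with LY-364947 (0.45).

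Of 13 Hippo kinases and adaptors, carbidopa lowered 4 and LY-364947 lowered 4, with none higher, and CHIR-99021 raised 3 and lowered 3. With 37.7%, 31.0% and 38.8% of all genes called in these comparisons, the numbers called in either direction were near the background for each compound. By direction, 18.0%, 13.7% and 18.7% of all genes were called higher and 19.7%, 17.2% and 20.1% lower, in the same order. Wwc2, a KIBRA relative that activates the LATS kinases, was, like Lats2, called lower with carbidopa and LY-364947 but not with CHIR-99021. It stood at 281 and 282 CPM in MEFs, 146 and 171 CPM with carbidopa, 168 and 176 CPM with LY-364947, and 262 and 243 CPM with CHIR-99021. Its log2 fold change was -0.83 and -0.71 with carbidopa and LY-364947, and -0.16 with CHIR-99021 (adjusted p of 0.265 in edgeR). Sav1, the MST scaffold, and Mob1a, the LATS coactivator, fell with all 3 compounds, by log2 fold changes of -0.38 to -0.61 and -0.52 to -0.62. Stk3, which encodes the kinase MST2, had -0.34 with LY-364947 and -0.52 with CHIR-99021, both called, and -0.27 with carbidopa (adjusted p of 0.0647).

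Axl has 2 sister receptors, Tyro3 and Mertk, and the TAM ligands are Gas6 and Pros1. Of these 4 genes, carbidopa lowered 3 and LY-364947 and CHIR-99021 lowered all 4. Beside them, 37.7%, 31.0% and 38.8% of all genes were called, in the order carbidopa, LY-364947 and CHIR-99021. The shares of all genes called lower were 19.7%, 17.2% and 20.1%. Gas6, the ligand of AXL, stood at 418 and 438 CPM in MEFs, 116 and 95.2 CPM with carbidopa, 89.0 and 109 CPM with LY-364947, and 122 and 104 CPM with CHIR-99021. Its log2 fold change was -2.02, -2.11 and -1.92, in the same order, with adjusted p of at most 3.15e-06 in edgeR. Tyro3 fell by 0.94, 1.20 and 0.82 on the log2 scale, and Pros1 fell by 0.62, 0.71 and 1.27. Mertk had a log2 fold change of -0.47 with carbidopa (adjusted p of 0.0683 in edgeR), and it fell by 0.90 with CHIR-99021 and by 0.56 with LY-364947, both called. With CHIR-99021, Axl was above MEFs in both libraries but not called (adjusted p of 0.0846 in edgeR), while these 4 genes were called lower. The part of the macrophage marker shifts in the values of these 4 genes was not tested either.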

How the data were processed

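Gene expression was measured by RNA-seq of total RNA in 8 libraries from MEF cultures. The authors mapped reads to mm10 with STAR 2.4.2a and counted them per gene with featureCounts, and the deposited values are raw counts. The library kit is named differently in the labels and in the methods, and the annotation release and strand setting are not given in the sources used here. The deposited counts, 15039566 to 20504338 per library, were tested with edgeR 4.0.16 in R 4.3.3 (filterByExpr, TMM, quasi-likelihood test on group, all 8 libraries in 1 fit, Benjamini-Hochberg adjustment over 15154 genes, called at an adjusted p under 0.05), after a check on simulated data. Levels are TMM-scaled CPM. Exon lengths and positions are from GENCODE M21, in which 99.6% of the gene identifiers were found. DESeq2 1.42.0, other scalings and filters, fits of 2 groups, a replicate block and fits without 1 library were alternatives. Nothing says that the libraries of a group came from separate cultures, so p-values measure the spread between these samples. The deviations of samples with the same number correlated at -0.26 to 0.23 over 6 pairs of groups, with 2 pairs above 0.1.

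The 10 genes and all lists were chosen with earlier results of these data known. Named from each other list are up to 4 genes with the smallest p against MEFs, and for Yap1, Ankrd1 and Axl the 3 genes with the closest profile over the 8 libraries. Ccn1 and Ccn2 are listed as Cyr61 and Ctgf in the counts.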

Additional observations from a re-analysis of the deposited data

How the results depend on the processing

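With 2 libraries per group and 4 residual degrees of freedom in the fit of all groups, most calls near the threshold moved with the setting. DESeq2, RLE size factors, a minimum of 10 counts in every library and the replicate block kept every count of called genes within 1.5 times its value. Fits of only the 2 groups compared called 2 of the 10 genes for carbidopa against MEFs, where 4209 of 14687 genes were called. They called 4 for LY-364947 against MEFs (6946 of 14676 genes) and 7 for CHIR-99021 against MEFs (7606 of 14430). For CHIR-99021 against carbidopa they called 1 (1027 of 14410 genes). With no filter on low counts, LY-364947 against carbidopa gave 1, where 329 of 26825 genes were called. With 1 library left out, the number of the 10 genes called moved in all 6 comparisons, and so did the number of all genes called. Under the replicate block, the 6 comparisons called 4, 2, 3, 6, 4 and 0 genes in the order carbidopa, LY-364947 and CHIR-99021 against MEFs, CHIR-99021 against carbidopa and against LY-364947, and LY-364947 against carbidopa. The pairing it assumes is by number alone: the correlation of same-numbered libraries ran from -0.26 to 0.23 over 6 pairs of groups. Small log2 differences changed sign: Yap1 with carbidopa under RLE (-0.0090), Tead3 with LY-364947 under DESeq2 (-7.0e-06), Tead2 with CHIR-99021 (0.020) and Yap1 in CHIR-99021 against LY-364947 (0.016) with no filter, and Amotl2 in LY-364947 against carbidopa under RLE (0.0017). With 1 library left out, sign changes were found for Ajuba with carbidopa (-0.064 to 0.30), Tead3 (-0.029 to 0.066) and Tead4 (-0.38 to 0.18) with LY-364947, Tead2 with CHIR-99021 (-0.057 to 0.061), Yap1 (-0.037 to 0.036) and Tead1 (-0.041 to 0.13) in CHIR-99021 against LY-364947, and Amotl2 (-0.14 to 0.12), Ajuba (-0.22 to 0.14), Yap1 (-0.012 to 0.057) and Tead4 (-0.17 to 0.40) in LY-364947 against carbidopa. None of these had been called, and the cause of the changes was not tested. Where leaving out a library leaves 1 in its group, that library is assumed to vary like the other groups. Under settings other than leaving out a library, 328 single-gene results kept direction and call. There, 12 gained a call, 15 lost one and 5 changed sign. With 1 library left out, 22 single-gene results changed sign.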

Other observations

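The genes whose profiles over the 8 libraries lay nearest to those of Yap1, Ankrd1 and Axl were found by the mean absolute difference between log2 CPM values centred on each gene's own mean. Nearest to Yap1 were Cyth3, an exchange factor for ARF proteins, at 0.0158, Aph1a, a subunit of gamma-secretase, at 0.0251, and Adam9, a membrane metalloprotease, at 0.0288. All 3 were nearly level across the groups, as Yap1 was. Nearest to Ankrd1 were Rangrf at 0.0674, Hmox1, which encodes heme oxygenase 1, at 0.0771 and Cd3eap, which encodes a subunit of RNA polymerase I, at 0.0860. Nearest to Axl were Tatdn2 at 0.0435, Tpm4, a tropomyosin of the actin cytoskeleton, at 0.0692 and Csf1, the growth factor of macrophages, at 0.0759. These are descriptions over 8 libraries of 4 groups, and any gene that follows the groups in the same order would come out near.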
